A study of Mus musculus with 7 samples.

Results

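Neutrophils of bone marrow were compared with neutrophils of peripheral blood in healthy mice, as the cells stand before and after release from the tissue that makes them. A cell was kept when S100a8 and S100a9 together made up at least 3% of its unique molecular identifiers (UMIs, which count captured transcripts), when Cd79a, Cd79b, Cd3e and Nkg7 together had fewer than 3 UMIs, and when mitochondrially encoded genes held at most 5% of its UMIs. Of 11335 cells deposited for these 4 libraries, 9528 were kept (4952 from blood and 4576 from bone marrow), out of 21763 cells in the whole series. The cells had been sorted as CD11b+ Ly6G+ and negative for propidium iodide from male C57BL/6J mice that carried no transgene and received no treatment. Each library pooled 3 mice, blood and bone marrow of a run came from the same animals, and the mice were 6 weeks old in run 1 and 8 weeks old in run 2, so that age and run cannot be told apart. Every tissue value therefore rests on n = 2 libraries.

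Neutrophils arise in bone marrow from dividing precursors that make their granule proteins in waves, stop dividing, segment their nuclei and are then released into blood, where they circulate for a short time. Their release and homing are governed by G-CSF, by the chemokine receptors Cxcr2 and Cxcr4, and by adhesion molecules such as the integrins. Mature neutrophils hold little RNA and most of their effector proteins are already stored, and they still transcribe genes of receptors, cytokines and survival factors.

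Interferon-stimulated genes, which cells switch on when type I or type II interferon reaches its receptor, and cell cycle genes were among the most one-sided gene groups below, and the DNA in front of 4 of their members is shown because it holds the motifs by which these groups are usually recognised. The sequences are the 250 bases before the annotated start in RefSeq on GRCm38.p6, written on the gene's own strand, and capitals mark matches on either strand to GAAANNGAAA (the interferon-stimulated response element) in the first pair and to TTTGAA (the cell cycle homology region) or CCAAT in the second. Matches may overlap, and Isg15 has 3 overlapping ones.
Trim30d, chr7:104507850-104508099, minus strand: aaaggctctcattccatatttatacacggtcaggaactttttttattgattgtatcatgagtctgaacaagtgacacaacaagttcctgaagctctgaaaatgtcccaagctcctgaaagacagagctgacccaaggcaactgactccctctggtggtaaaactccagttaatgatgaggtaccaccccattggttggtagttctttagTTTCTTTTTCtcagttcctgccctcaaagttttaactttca
Isg15, chr4:156200819-156201068, minus strand: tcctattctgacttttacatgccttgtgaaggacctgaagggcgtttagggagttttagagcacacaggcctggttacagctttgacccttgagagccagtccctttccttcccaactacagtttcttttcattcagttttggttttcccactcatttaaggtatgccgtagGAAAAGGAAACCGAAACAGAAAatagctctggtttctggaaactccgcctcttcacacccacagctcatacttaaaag
Smc2, chr4:52438971-52439220, plus strand: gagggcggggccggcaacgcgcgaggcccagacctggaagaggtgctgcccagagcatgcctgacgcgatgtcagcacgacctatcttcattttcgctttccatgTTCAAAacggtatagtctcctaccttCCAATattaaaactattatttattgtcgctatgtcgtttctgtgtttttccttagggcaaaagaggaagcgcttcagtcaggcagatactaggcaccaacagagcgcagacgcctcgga
Cks1b, chr3:89418292-89418541, minus strand: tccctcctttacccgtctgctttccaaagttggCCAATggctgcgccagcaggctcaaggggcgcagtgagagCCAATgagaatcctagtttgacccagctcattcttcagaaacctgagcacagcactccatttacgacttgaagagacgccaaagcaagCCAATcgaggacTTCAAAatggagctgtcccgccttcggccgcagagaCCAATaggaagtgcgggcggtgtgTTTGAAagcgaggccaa
The response element matched in 17 of the 36 interferon-stimulated genes that passed as higher in blood and had an entry in the table (47 passed), in 4 of 20 other members tested, and in 3.46% of all 27025 genes with an entry. TTTGAA matched in 12 of 40 cell cycle genes that passed as higher in bone marrow against 18.3% of all genes, and CCAAT in 32 of these 40 against 37.5%. Among the 5874 tested genes with an entry, the shares were 3.51% for the response element, 12.8% for TTTGAA and 40.5% for CCAAT. Of the other cell cycle genes tested, 2 of 8 held TTTGAA and 7 of 8 held CCAAT, shares near those of the called genes. These are counts of letters and not of bound factors.

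The UMIs of kept cells came to 1356748 and 3423894 for blood and to 4068248 and 8878458 for bone marrow, with run 1 before run 2 here and throughout. A kept cell had a median of 809 and 824 UMIs in blood and of 2669 and 2126 in bone marrow. All 15 neutrophil markers had UMIs in every library, whereas the 10 progenitor markers summed to between 9.35 and 14.01 per 1000000 UMIs of the library. On this scale of plain library totals, erythroid markers summed to 943 and 31070 in blood and to 1126 and 471 in bone marrow, platelet markers to 150 and 232 against 43.5 and 46.0, B-cell markers to 26.5 and 278 against 13.8 and 152, and the 14 monocyte or macrophage markers to 642 and 272 against 1344 and 1030. Ly6c2 alone held 478 and 142 of the monocyte or macrophage sum in blood and 1301 and 969 in bone marrow, and the other 13 markers summed to 164 and 129.97 in blood against 42.5 and 61.2 in bone marrow, of which Csf1r held 114 and 92.0 against 11.3 and 15.2. The 12 markers left without both genes summed to 49.4 and 38.0 in blood and to 31.2 and 46.0 in bone marrow, higher in blood in run 1 and lower in run 2. NK-cell markers summed to 81.8 and 11.7 in blood against 9.09 and 6.53 in bone marrow, with 1 of 2 tested passing as higher in blood, and eosinophil or basophil markers to 45.0 and 34.8 against 67.8 and 123. T-cell markers lay between 31.4 and 39.1 and dendritic cell markers between 12.7 and 19.9. The part of these cell types in the results below was not tested beyond the exclusion given next. Of the other lists, 5 of 9 platelet genes tested and 2 of 8 erythroid genes passed as higher in blood, and 2 of 9 monocyte or macrophage genes as higher in blood and 4 as higher in bone marrow. When cells with monocyte, erythroid or platelet markers were left out, the counts of called genes were 1177 and 1243, close to those given next. Between any 2 libraries, 2 to 25 cell barcodes of kept cells were shared, 96 kept cells in all, and without them the counts were 1211 and 1147.

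The transcriptomes differed broadly between the tissues. Of 7606 genes tested with edgeR's quasi-likelihood test, with run as a block and a false discovery rate of 0.05, 1246 were higher in blood (16.4%) and 1175 were higher in bone marrow (15.4%). Called genes were a median of 2.29-fold higher in blood or 2.85-fold higher in bone marrow, and 791 and 882 of them differed at least 2-fold. Only 1 called gene, Gm10636, named after its values were seen, differed in opposite directions in the runs, against 1477 of all genes tested. In 2302 of the 2421 called genes the blood and bone marrow libraries did not overlap in CPM (counts scaled to 1000000 per library after TMM normalisation, here and below), which was so in 65.9% of all genes tested. Fits below that leave out 1 library also held the spleen libraries of both runs, with cells kept by the same rule. Their spread therefore includes that of spleen, which the main fit did not hold. With none of these 6 healthy libraries left out, that fit gave 926 and 876 calls. Without 1 blood library it gave fewer still, with a single blood library remaining. When CPM were set by library totals alone, the median log2 difference of all genes moved from -0.02 to 0.29 and the calls split into 2002 higher in blood and 829 higher in bone marrow, so every difference below is relative to the normalised median.

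**Figure D1:**
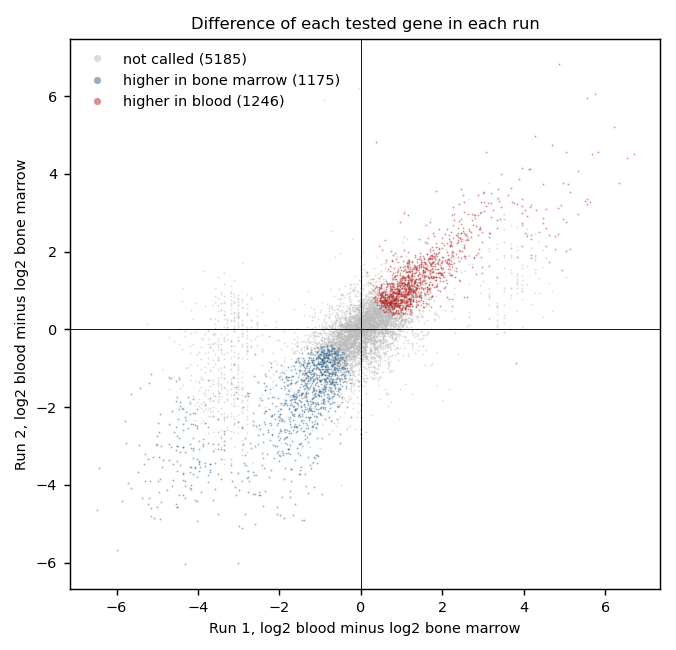
Each point is 1 of 7606 genes, placed by the log2 difference between blood and bone marrow in run 1 (horizontal) and in run 2 (vertical), and coloured by call. Called genes lie in the upper right (1246 higher in blood) and lower left (1175 higher in bone marrow), with 1 exception.

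The 12 genes with the largest difference toward blood, among called genes with at least 50 CPM on average and outside the granule and marker lists, are described here. They included genes of surface receptors, secreted proteins and dampers of signalling, beside others. Ctla2a (chr13:60934155-60936625, minus strand, GRCm38 throughout), which encodes a small inhibitor of cathepsin-like proteases, stood at 90.5 and 143 CPM in blood and 2.62 and 0.790 CPM in bone marrow, a log2 difference of 6.34 ± 0.44 (SE; adjusted p = 0.000254). Cd244, a receptor of the SLAM family, stood at 76.6 and 122 CPM against 0.262 and 4.87 CPM, with only 1 UMI in bone marrow of run 1, and differed by 5.17 ± 0.43 (SE; adjusted p = 0.000382). Fgl2 (chr5:21372642-21378374, plus strand), a fibrinogen-like protein that can be secreted, stood at 501 and 861 CPM against 27.6 and 48.8 CPM, a difference of 4.16 ± 0.20 (SE; adjusted p = 0.000213). For all 3 genes both blood libraries lay far above both bone marrow libraries. Prr5l (chr2:101714285-101883027, minus strand), which encodes a partner of the mTOR complex, had 85.5 and 125 CPM in blood and 4.46 and 6.71 in bone marrow (4.23 ± 0.22). Wfdc17 (chr11:83703991-83706268, plus strand), a secreted protein of the whey acidic family, had 999.8 and 4902 CPM against 67.7 and 336 (3.88 ± 0.20). Its level was about 5 times higher in run 2 than in run 1 in both tissues, with the same distance between them. The interleukin-13 receptor chain Il13ra1 (chrX:36112110-36171259, plus strand) had 86.1 and 229 CPM against 8.92 and 23.6 (3.27 ± 0.19), and the ganglioside activator Gm2a (chr11:55098115-55113029, plus strand) had 339 and 567 against 32.5 and 46.1 (3.51 ± 0.18). The signalling dampers Socs3 (chr11:117966079-117970047, minus strand) and Dusp1 (chr17:26505590-26562128, minus strand) are described with their families. The noncoding transcript Gm26532 (chr8:84208920-84209609, plus strand) differed by 3.57 ± 0.19, the paired receptor Sirpb1c (chr3:15795145-15848528, minus strand) by 3.39 ± 0.17 and the pseudogene Gad1-ps (chr10:99444044-99445819, plus strand) by 3.32 ± 0.20. The last 2 are uncertain, since reads of Sirpb1c can fall on its close copies Sirpb1a and Sirpb1b and those of a pseudogene on its parent.

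Toward bone marrow, the corresponding 12 genes held cell division genes, the granulocyte factor Cebpe and a set of membrane and metabolic genes. Birc5 (chr11:117849251-117855743, plus strand), which encodes survivin of the chromosomal passenger complex, stood at 8.86 and 4.14 CPM in blood and 106 and 123 CPM in bone marrow, a log2 difference of -4.31 ± 0.32 (SE; adjusted p = 0.000277). The DNA replication factor gene 2810417H13Rik stood at 9.50 and 6.62 CPM against 119 and 123 CPM (-3.97 ± 0.25). Ube2c (chr2:164769898-164778822, plus strand), which marks mitotic cyclins for destruction, stood at 27.2 and 10.2 CPM against 142 and 189 CPM (-3.32 ± 0.39). These genes were more than 5-fold lower in each blood library than in the bone marrow library of its run. Stmn1 (chr4:134468320-134473843, plus strand), a microtubule destabiliser, was uneven: it stood at 1.90 and 7.72 CPM against 6.82 and 186, so that bone marrow of run 1 lay below blood of run 2, and the difference of -4.33 ± 0.42 (SE; adjusted p = 0.000587) came mostly from run 2. Ifitm6 (chr7:141015699-141017924, minus strand), a member of the interferon-induced transmembrane family, was the most abundant of the 12 and stood at 991 and 501 CPM against 4337 and 4972 (-2.72 ± 0.30). Anxa3 (chr5:96793339-96845966, plus strand), an annexin, stood at 60.8 and 21.2 CPM against 282 and 266 (-2.92 ± 0.33). Prok2 (chr6:99711299-99726392, minus strand), a secreted prokineticin, stood at 11.4 and 18.5 CPM against 53.5 and 123 (-2.56 ± 0.23). None of these last 3 genes overlapped between the tissues. Of the remaining genes, Tuba1b (chr15:98931425-98934565, minus strand) encodes an alpha tubulin, Tst (chr15:78399556-78405907, minus strand) the mitochondrial enzyme rhodanese, Nfu1 (chr6:87009236-87028461, plus strand) an iron-sulphur cluster scaffold and Tmem256 (chr11:69838514-69839618, plus strand) a membrane protein, with differences of -3.21 ± 0.22, -2.80 ± 0.46, -2.65 ± 0.28 and -2.72 ± 0.38.

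**Figure D2:**
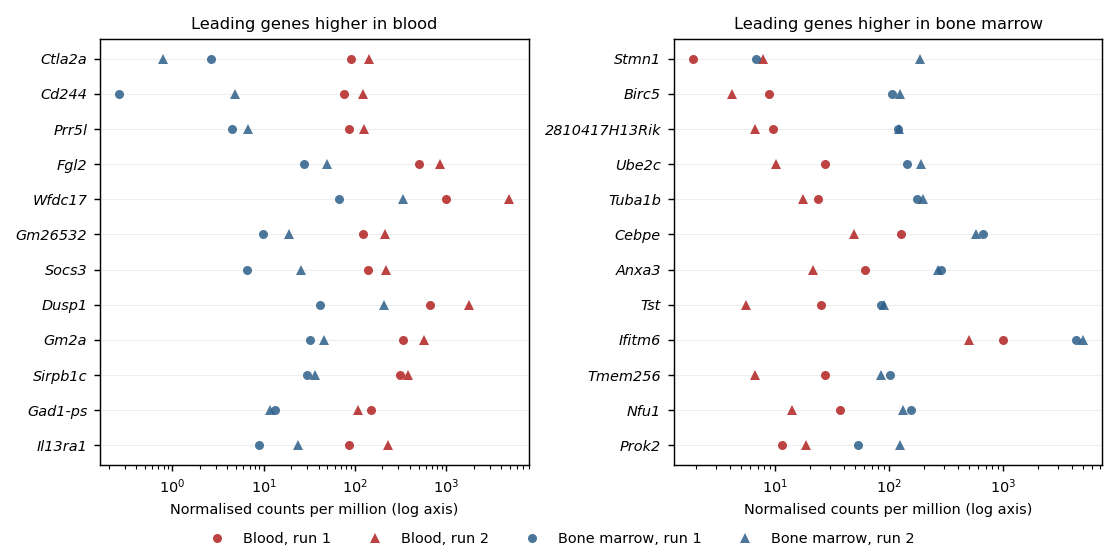
Normalised CPM (log axis) of the 12 leading genes in each direction, with 1 point for each of the 4 libraries, red for blood and blue for bone marrow, circles for run 1 and triangles for run 2. Red and blue points are separate for every gene except Stmn1, where bone marrow of run 1 (6.82 CPM) lies below blood of run 2 (7.72 CPM).

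Gene lists by pathway showed which functions these genes belonged to. The lists with the highest median toward blood were interferon-stimulated genes, glucocorticoid-responsive genes, cytokines, immediate early genes, MHC class I and cytokine receptors. Those with the lowest median were cell cycle, granule protein, chromatin, cholesterol synthesis and tubulin genes. For every list the counts are read against 16.4% and 15.4% of all genes tested and a median of -0.02. In fits without 1 blood library, calls fell in most lists and some lists kept none. That is relative to the main fit, which held no spleen library, so the 2 changes are not separated. The 42 lists are the 40 plotted ones, the S100 relatives and the mitochondrially encoded genes. Without the blood library of run 1, 18 of their medians moved by more than their SD over the 2 runs, and without that of run 2, 24 did. With cells thinned to 500 UMIs, 27 of the 42 list medians moved by more than their SD over the 2 runs, and those of the heat shock (0.09), lipid mediator (-0.26) secretory pathway (0.10) and survival (-0.000259) lists turned sign, while that of antiproteases fell to 0.09.

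**Figure D3:**
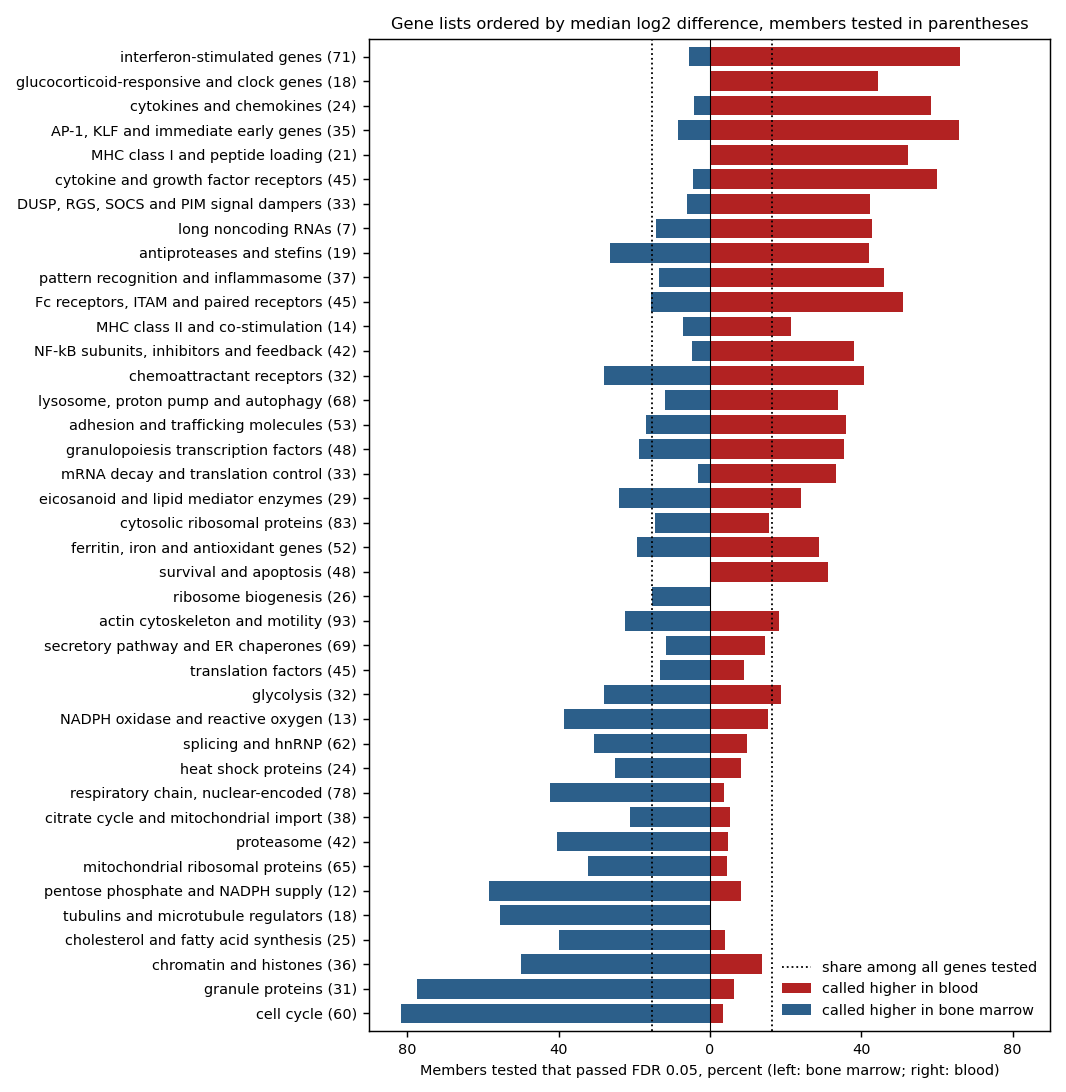
For 40 gene lists, ordered by their median log2 difference, bars show the percentage of members tested that passed as higher in blood (red, to the right) or in bone marrow (blue, to the left), and dotted lines the shares among all genes tested (16.4% and 15.4%). Interferon-stimulated genes stand at the top and cell cycle genes at the bottom.

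The dividing state was seen in bone marrow and hardly in blood. Of the cell cycle list, 2 of 60 members tested passed as higher in blood and 49 as higher in bone marrow, with a median log2 difference of -3.80. Cells with at least 3 UMIs of these genes and at least 1% of their UMIs in them numbered 1 and 3 in blood and 20 and 145 in bone marrow, or 0.0766% and 0.0823% against 1.68% and 4.29% of kept cells. Rrm2, the small subunit of ribonucleotide reductase, stood at 1.90 and 1.93 CPM in blood against 54.3 and 56.6 in bone marrow (-4.84 ± 0.30 (SE; adjusted p = 0.000219)). Nusap1, which binds spindle microtubules, stood at 1.90 and 3.03 CPM against 38.3 and 75.1 (-4.54 ± 0.29), and the condensin subunit gene Smc2 at 1.90 and 2.21 CPM against 39.9 and 55.7 (-4.56 ± 0.30). All blood values of the last 3 genes lay below 4 CPM. The members that went the other way were Ccnd2, which encodes the G1 cyclin D2, at 48.1 and 61.5 CPM against 7.87 and 5.92 (3.05 ± 0.26 (SE; adjusted p = 0.000401)), and Kif23, a kinesin of cytokinesis, at 46.2 and 54.3 CPM against 17.6 and 24.2 (1.26 ± 0.20 (SE; adjusted p = 0.00328)). With the cycling cells left out, 2 and 31 members passed in the same order, although those cells were chosen by the same genes. Without the blood library of run 1 these counts were 0 and 34, and without that of run 2 0 and 30.

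More chromatin genes were called toward bone marrow than toward blood, with exceptions. As a sum the list took a larger share of all UMIs in blood, 0.700% and 1.07% against 0.581% and 1.04% in bone marrow. Of the chromatin and histone genes, 5 of 36 members tested passed as higher in blood and 18 as higher in bone marrow, with a median log2 difference of -1.54. This median was -0.95 with cycling cells left out (4 and 11 calls), -0.87 without cells with markers of other types, -0.80 with limits on genes per cell and -0.23 with cells thinned to 500 UMIs, where 24 members were tested (4 and 9 calls). Anp32b, a histone chaperone, stood at 34.2 and 35.8 CPM against 102 and 134 (-1.76 ± 0.19), its relative Anp32e at 6.33 and 5.24 against 40.7 and 45.7 (-2.95 ± 0.26), and the nuclear protein gene Nucks1 at 4.43 and 7.44 against 36.7 and 45.5 (-2.74 ± 0.26). The histone genes Hist1h2bc and Hist1h1c went the other way. Hist1h2bc stood at 621 and 663 CPM in blood against 112 and 119 in bone marrow (2.48 ± 0.18 (SE; adjusted p = 0.00026)), and Hist1h1c, a linker histone, at 315 and 210.3 against 84.5 and 71.7 (1.72 ± 0.17). Histone genes are close copies, so that reads may be split among them. Tubulins and their regulators had 0 higher in blood and 10 higher in bone marrow of 18 tested (median -1.04). Tubb5, a beta tubulin, stood at 46.2 and 27.3 CPM against 145 and 158 (-2.11 ± 0.24), and Tuba4a at 98.8 and 62.03 against 234 and 245 (-1.62 ± 0.21).

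Transcription factors of granulopoiesis passed toward blood more often than all genes tested (35.4% against 16.4%). Toward bone marrow their share was near that of all genes tested (18.75% against 15.4%). Of this list, 17 of 48 members tested passed as higher in blood and 9 as higher in bone marrow, with a median log2 difference of 0.30. Cebpe (chr14:54710360-54712174, minus strand), which drives the genes of secondary granules, stood at 126 and 48.5 CPM in blood and 661 and 577 CPM in bone marrow (-2.98 ± 0.30 (SE; adjusted p = 0.000621)). Ets1 stood at 27.2 and 18.2 CPM against 74.5 and 84.1 (-1.87 ± 0.24), and Lmo2, a bridging factor of early blood cells, at 31.7 and 13.8 against 61.7 and 42.6 (-1.30 ± 0.24). In the other direction, the retinoic acid receptor gene Rara stood at 199 and 189.7 CPM against 56.2 and 58.8 (1.75 ± 0.16 (SE; adjusted p = 0.000507)). The repressor gene Bcl6 stood at 27.2 and 38.3 CPM against 5.77 and 11.7 (1.89 ± 0.24), and the interferon regulatory factor gene Irf5 at 29.1 and 24.5 against 8.92 and 8.16 (1.63 ± 0.23). None of these 6 genes overlapped between tissues. The difference of Cebpe was -3.15 without the blood library of run 1 and -3.03 without that of run 2. In these fits, which include spleen, it no longer passed.

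Immediate early genes, which cells transcribe within minutes of a stimulus without new protein, had more calls toward blood than toward bone marrow. Of the AP-1, KLF and immediate early list, 23 of 35 members tested passed as higher in blood and 3 as higher in bone marrow, with a median log2 difference of 1.11. Jund, a subunit of AP-1, stood at 942 and 1432 CPM in blood and 138 and 187 CPM in bone marrow (2.86 ± 0.20 (SE; adjusted p = 0.000254)). Ier5 stood at 686 and 460.1 CPM against 112 and 86.5 (2.51 ± 0.18), and the nuclear receptor gene Nr4a1 at 18.4 and 27.3 against 1.84 and 2.37 (3.44 ± 0.31). Atf3, a repressor induced by stress, stood at 24.1 and 52.9 CPM against 0 and 1.84 and had no UMI in bone marrow of run 1. The 3 members called toward bone marrow were Id2, an inhibitor of helix-loop-helix factors at 72.8 and 32.5 CPM against 156 and 124 (-1.52 ± 0.23), the small Maf gene Mafg (-1.45 ± 0.21) and Gadd45g (-1.32 ± 0.33). Without the blood library of run 1, 8 and 0 members passed, and without that of run 2, 12 and 0.

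NF-kB, the main factor downstream of Toll-like receptors and TNF, and its feedback genes had 16 higher in blood and 2 higher in bone marrow of 42 tested (median 0.50). Tnfaip2, a target of TNF, stood at 296 and 410.2 CPM against 54.3 and 80.1 (2.40 ± 0.17). The adaptor gene Myd88 stood at 158 and 189 CPM against 54.3 and 65.4 (1.54 ± 0.16), and Nfkbiz, an atypical inhibitor, at 41.8 and 53.8 against 13.6 and 21.98 (1.42 ± 0.21). The 2 members called toward bone marrow were Tnfaip8 (-0.72 ± 0.17) and the inhibitor gene Nfkbib (-0.80 ± 0.23). Glucocorticoid-responsive and clock genes had 8 higher in blood and 0 higher in bone marrow of 18 tested, with medians of 1.05 in run 1 and 0.94 in run 2. Tsc22d3, which encodes the glucocorticoid-induced leucine zipper, stood at 483 and 885 CPM in blood and 108 and 272 CPM in bone marrow (1.93 ± 0.20 (SE; adjusted p = 0.000723)). Txnip, an inhibitor of thioredoxin and of glucose uptake, stood at 705 and 605 CPM against 121 and 162 (2.22 ± 0.22), and the kinase gene Sgk1 at 83.6 and 76.9 against 28.6 and 37.1 (1.28 ± 0.20). Dusp1 belongs to this list and to the next.

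Dampers of signalling were more often higher in blood, with 14 higher in blood and 2 higher in bone marrow of 33 tested (median 0.70). Dusp1, a phosphatase of MAP kinases, stood at 672 and 1763 CPM in blood and 40.9 and 209 CPM in bone marrow (3.54 ± 0.28 (SE; adjusted p = 0.000341)). Socs3, the feedback inhibitor of the G-CSF and interleukin-6 receptors, stood at 138 and 219 CPM against 6.56 and 25.7 (3.56 ± 0.30 (SE; adjusted p = 0.000382)). Rgs2, which shortens G-protein signals, stood at 726 and 644 CPM against 217 and 174 (1.82 ± 0.18). Its relative Rgs18 went the other way, at 84.2 and 117 CPM against 181 and 274 (-1.17 ± 0.16), as did the arrestin gene Arrb2 at 208 and 162 against 299 and 256 (-0.60 ± 0.16).

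Among ligands, cytokine and chemokine genes had 14 higher in blood and 1 higher in bone marrow of 24 tested (median 1.11). Il1b, which encodes interleukin-1 beta, stood at 1627 and 3511 CPM in blood and 47.8 and 262 CPM in bone marrow (4.40 ± 0.35 (SE; adjusted p = 0.00036)). Metrnl, a secreted protein related to meteorin, stood at 144 and 235 CPM against 18.4 and 23.8 (3.16 ± 0.19), and the TNF family ligand gene Tnfsf14 at 79.1 and 78.3 against 19.7 and 17.9 (2.07 ± 0.20). Tnfsf13b, which encodes the B-cell factor BAFF, was the member that passed toward bone marrow, at 30.4 and 21.5 CPM against 59.8 and 41.98 (-0.97 ± 0.20). Together the list took 0.951% and 1.24% of all UMIs in blood and 0.240% and 0.273% in bone marrow.

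Chemoattractant receptors changed in both directions, with 13 higher in blood and 9 higher in bone marrow of 32 tested (median 0.49). The platelet-activating factor receptor gene Ptafr stood at 251 and 298 CPM in blood and 71.9 and 87.1 CPM in bone marrow (1.79 ± 0.16). The second C5a receptor gene C5ar2 stood at 129 and 159 CPM against 32.02 and 47.6 (1.86 ± 0.18), the adhesion receptor gene Adgre5 at 280.5 and 394 against 50.4 and 54.7 (2.67 ± 0.18). Receptors for leukotriene B4, sphingosine phosphate and short-chain fatty acids went the other way. Ltb4r1 stood at 158 and 92.9 CPM against 358 and 343 (-1.54 ± 0.21 (SE; adjusted p = 0.00171)), S1pr4 at 46.9 and 27.02 against 119 and 96.9 (-1.61 ± 0.20) and Ffar2 at 13.3 and 3.31 against 53.8 and 36.1 (-2.67 ± 0.34). Cxcr2 and Cxcr4, named for their known part in release and retention after their values were seen, both passed as higher in blood. Cxcr2 stood at 778 and 1185 CPM against 216 and 469 (1.59 ± 0.21), and Cxcr4 at 268 and 316 against 169.5 and 107 (1.13 ± 0.23 (SE; adjusted p = 0.0096)). Without the blood library of run 1, 0 and 0 members of the list passed.

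Receptors for cytokines and growth factors were among the most one-sided lists: 27 of 45 members tested passed as higher in blood and 2 as higher in bone marrow, with a median log2 difference of 0.92. Csf3r, the receptor for G-CSF, stood at 1222 and 1545 CPM in blood and 160.1 and 256 CPM in bone marrow (2.76 ± 0.20 (SE; adjusted p = 0.00026)). Csf1r, the receptor for M-CSF that is usually taken as a monocyte marker, stood at 98.1 and 86.8 CPM against 12.1 and 17.8 (2.60 ± 0.24). The part of monocyte RNA in this value was not tested, and the sum of the other monocyte or macrophage markers is given above. The TNF receptor gene Tnfrsf1b stood at 48.8 and 77.7 CPM against 7.35 and 12.6 (2.66 ± 0.21). In none of the 3 did the tissues overlap. The 2 members called toward bone marrow were Acvrl1, a receptor of the TGF-beta family at 23.4 and 2.48 CPM against 52.5 and 48.7 (-2.42 ± 0.57), and Tnfrsf21 (-1.11 ± 0.24). Without the blood library of run 1, 2 and 0 members passed, with Csf3r at an adjusted p of 0.0508, and without that of run 2, 5 and 0.

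Sensors of microbes had 17 higher in blood and 5 higher in bone marrow of 37 tested (median 0.64). Cd14, the co-receptor for lipopolysaccharide, stood at 29.1 and 131 CPM in blood and 2.36 and 12.8 CPM in bone marrow (3.41 ± 0.23 (SE; adjusted p = 0.000254)). Nlrp3, the core of the inflammasome, stood at 94.3 and 95.9 CPM against 12.3 and 17.5 (2.66 ± 0.21), and Mefv, which encodes pyrin, at 31.7 and 42.5 against 5.51 and 7.90 (2.46 ± 0.22). The inflammasome adaptor gene Pycard stood the other way, at 58.3 and 25.4 CPM against 111 and 94.8 (-1.42 ± 0.26). The lectin receptors were also divided, with Clec4n at 29.8 and 73.9 CPM against 1.84 and 7.24 (3.50 ± 0.26) and Clec4a2 at 168 and 139 against 428 and 466 (-1.55 ± 0.18 (SE; adjusted p = 0.00105)).

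Interferon-stimulated genes had the highest median of all lists in the fit of both runs. Within single runs it was not first, since immediate early genes had a median of 1.36 against 1.34 in run 1 and cytokines 1.19 against 1.07 in run 2. Here 47 of 71 members tested passed as higher in blood and 4 as higher in bone marrow, with a median log2 difference of 1.23, and the list took 1.73% and 2.07% of UMIs in blood against 0.996% and 1.08% in bone marrow. Oasl2, a relative of the oligoadenylate synthetases, stood at 288 and 246 CPM in blood and 38.6 and 31.5 CPM in bone marrow (2.94 ± 0.17 (SE; adjusted p = 0.000213)). Isg15, a ubiquitin-like modifier, stood at 346 and 385 CPM against 74.8 and 82.9 (2.21 ± 0.16 (SE; adjusted p = 0.00026)). The surface protein gene Ly6e stood at 422 and 452 CPM against 71.1 and 83.3 (2.50 ± 0.17). Values of a tissue were close in both runs for these 3 genes. Trim30d, whose upstream sequence is printed above, stood at 91.8 and 125 CPM against 8.66 and 17.4 (3.07 ± 0.22), and its close copies may share reads with it. The 4 members called toward bone marrow were Ifitm6, the endosomal protein gene Samd9l at 50.02 and 56.8 CPM against 77.9 and 127 (-0.93 ± 0.20), the nuclear body gene Sp110 (-1.31 ± 0.30) and the purine enzyme gene Pnp (-0.90 ± 0.22). Without the blood library of run 1, 11 and 0 members passed, without that of run 2, 14 and 0, and with DESeq2 26 and 2.

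**Figure D4:**
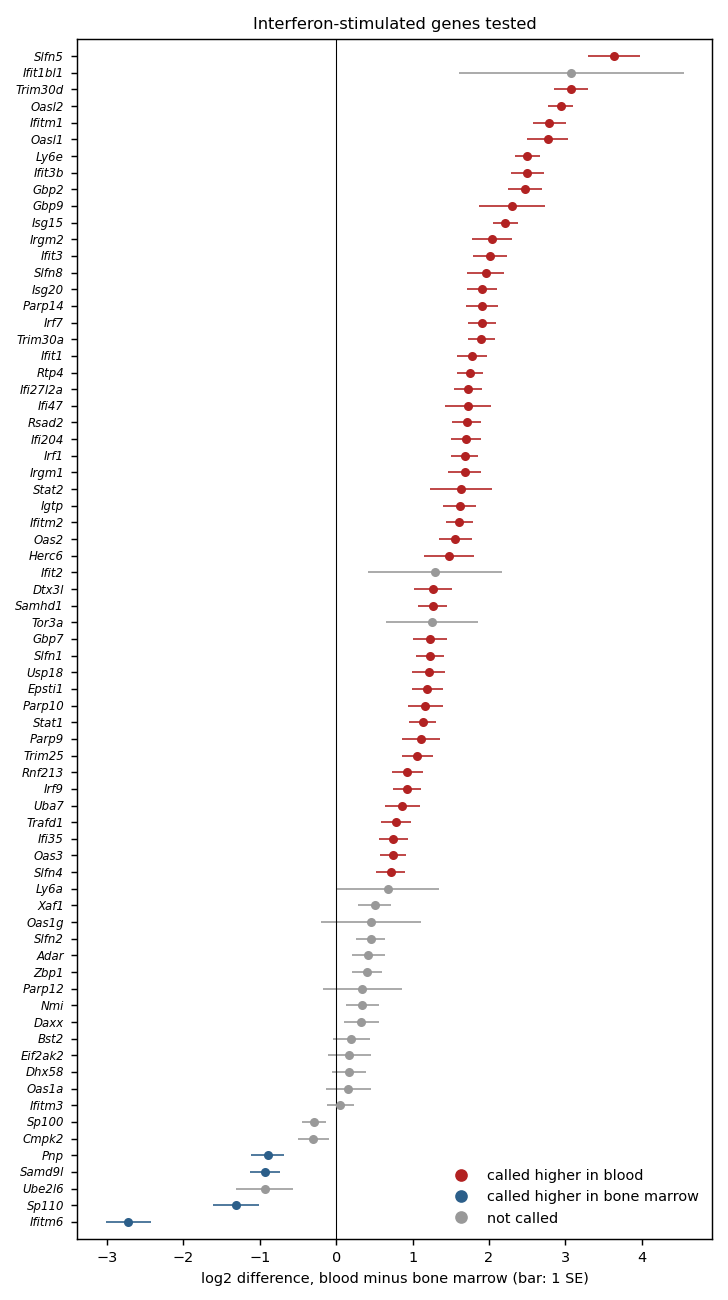
Log2 difference between blood and bone marrow for each of the 71 interferon-stimulated genes tested, with a bar of 1 standard error on each side, red where the gene passed as higher in blood (47), blue where it passed as higher in bone marrow (4) and grey otherwise. Most points lie to the right of 0, and Ifitm6 (-2.72) lies farthest to the left among called genes.

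Genes of antigen presentation by MHC class I had 11 higher in blood and 0 higher in bone marrow of 21 tested (median 0.95). The heavy chain gene H2-D1 stood at 3107 and 3884 CPM in blood and 1227 and 1680.5 CPM in bone marrow (1.27 ± 0.17 (SE; adjusted p = 0.0017)), and H2-K1 at 441 and 325 CPM against 162 and 140.3 (1.33 ± 0.17). Tapbp, which encodes the loading factor tapasin, stood at 145 and 159 CPM against 66.4 and 71.1 (1.15 ± 0.16). H2-Q10, at 769 and 840.0 CPM against 101 and 135 (2.79 ± 0.20), is uncertain because class I genes are close copies. The list of MHC class II and co-stimulation had 3 higher in blood and 1 higher in bone marrow of 14 tested (median 0.60), and none of the members that passed was a class II gene. Cd53 is a tetraspanin at 556 and 793 CPM against 367 and 470.5 (0.68 ± 0.18) and Cd24a a small surface protein at 432 and 393 CPM against 792 and 804 (-0.95 ± 0.18). The checkpoint ligand gene Cd274 had 10.1 and 12.96 CPM against 0 and 0.526 and the co-stimulatory gene Cd80 12.7 and 15.4 against 0 and 3.29, both from few UMIs.

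Among receptors that signal through ITAM adaptors and paired receptors, 23 of 45 members tested passed as higher in blood and 7 as higher in bone marrow, with a median log2 difference of 0.63. Sirpb1b, an activating member of the signal-regulatory proteins, stood at 532 and 654 CPM in blood and 75.8 and 84.1 CPM in bone marrow (2.89 ± 0.18 (SE; adjusted p = 0.000224)), with the same doubt as for Sirpb1c. Cd300ld stood at 334 and 421 CPM against 57.5 and 95.9 (2.33 ± 0.18). Ly6g, whose protein was used in the sort of both tissues, stood at 351 and 145 CPM against 1277 and 1013 (-2.33 ± 0.26 (SE; adjusted p = 0.000908)). Its relative Ly6c2, usually taken as a monocyte marker, stood at 411 and 134 CPM against 1389 and 1132 (-2.41 ± 0.32), and its close copy Ly6c1 overlapped between the tissues (37.99 and 1.93 CPM against 78.5 and 7.24). Ceacam10 also passed toward bone marrow, at 142 and 91.8 CPM against 296 and 292 (-1.37 ± 0.20).

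Adhesion and trafficking molecules had 19 higher in blood and 9 higher in bone marrow of 53 tested (median 0.35). Itga4, the alpha 4 integrin of VLA-4, stood at 72.2 and 101 CPM in blood and 8.14 and 10.8 CPM in bone marrow (3.19 ± 0.21 (SE; adjusted p = 0.000242)). Selplg, the selectin ligand PSGL-1, stood at 922 and 1181 CPM against 219 and 341 (1.93 ± 0.19), and Amica1, an adhesion molecule of the junctional family, at 334 and 431 against 87.9 and 109 (1.96 ± 0.16). The tetraspanins were divided. Tspan13 stood at 348 and 466 CPM against 55.9 and 58.96 (2.82 ± 0.18), whereas Tspan32 stood at 19.6 and 10.8 against 62.2 and 51.9 (-1.99 ± 0.24), Cd81 at 49.4 and 28.4 against 131 and 109.8 (-1.69 ± 0.21) and Cd63 at 306 and 231 against 565 and 526 (-1.04 ± 0.18). Named after their values were seen, the integrin genes Itgam (-0.41 ± 0.19, adjusted p = 0.149) and Itgb2 (0.06 ± 0.18, adjusted p = 0.812) did not pass.

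The actin cytoskeleton list had 17 higher in blood and 21 higher in bone marrow of 93 tested (median -0.01), and its median turned positive with library totals. Marcks, which links membrane and actin, stood at 445 and 743 CPM in blood and 46.2 and 88.3 CPM in bone marrow (3.17 ± 0.19 (SE; adjusted p = 0.000213)), and Ezr, which encodes ezrin, at 137 and 185 CPM against 75.1 and 75.7 (1.09 ± 0.18). The annexin gene Anxa1 stood at 1220.1 and 1258 CPM against 4071 and 4097 (-1.72 ± 0.17 (SE; adjusted p = 0.000616)). The actin-severing gene Dstn stood at 50.02 and 157 CPM against 199 and 921 (-2.30 ± 0.21). Dstn was over 3-fold higher in run 2 than in run 1 in both tissues, and the tissue difference pointed the same way in each run.

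Of the granule protein genes, 2 of 31 members tested passed as higher in blood and 24 as higher in bone marrow, with a median log2 difference of -2.28. Those that passed included the leukotriene receptor gene Ltb4r1 and the annexin gene Anxa1 given above and Cybb below. The list is not described further here.

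The oxidase that makes superoxide had 2 higher in blood and 5 higher in bone marrow of 13 tested (median -0.24), and this median changed sign when CPM were set by library totals. Cybb, the catalytic subunit, stood at 256 and 55.4 CPM in blood and 944 and 809 CPM in bone marrow (-2.86 ± 0.45 (SE; adjusted p = 0.00296)). Ncf1, a cytosolic subunit, stood at 294 and 157 CPM against 549 and 491 (-1.27 ± 0.22), and the proton channel gene Hvcn1 at 17.7 and 3.03 against 59.8 and 41.9 (-2.62 ± 0.41). The GTPase gene Rac1 (0.62 ± 0.18) and its activator Vav1 (0.63 ± 0.18), which have many other roles, were the members that passed toward blood. Antiproteases and stefins had 8 higher in blood and 5 higher in bone marrow of 19 tested (median 0.65). Slpi, the secreted leukocyte protease inhibitor, stood at 5431 and 6922 CPM against 2555 and 3162 (1.11 ± 0.16), and cystatin C, encoded by Cst3, at 1326 and 1394 against 563 and 565 (1.27 ± 0.18). Serpinb1a, the intracellular inhibitor of neutrophil elastase, went the other way, at 149 and 30.6 CPM against 570.3 and 614 (-3.09 ± 0.52 (SE; adjusted p = 0.00408)), with Wfdc21 at 3455 and 2519 against 10379.6 and 10448 (-1.82 ± 0.17).

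Lipid mediators had 7 higher in blood and 7 higher in bone marrow of 29 tested (median 0.17). Pla2g7, which degrades platelet-activating factor, stood at 615 and 787 CPM in blood and 70.1 and 81.6 CPM in bone marrow (3.20 ± 0.19 (SE; adjusted p = 0.000213)). Cyp4f18, which inactivates leukotriene B4, stood at 414 and 447 CPM against 181 and 209.5 (1.14 ± 0.17). Lta4h, which makes leukotriene B4, stood at 50.02 and 16.3 CPM against 191 and 150.4 (-2.56 ± 0.30 (SE; adjusted p = 0.00101)).

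Iron and antioxidant genes had 15 higher in blood and 10 higher in bone marrow of 52 tested (median 0.07). Fth1, the ferritin heavy chain, stood at 4968 and 7798 CPM in blood and 2299.8 and 2805 CPM in bone marrow (1.29 ± 0.17), and the iron exporter gene Slc40a1 at 361 and 444 CPM against 122 and 125 (1.70 ± 0.17 (SE; adjusted p = 0.000608)). Msrb1, a methionine sulphoxide reductase, stood at 5474 and 6571 CPM against 2312 and 2533 (1.31 ± 0.16). Peroxiredoxins and glutaredoxin went the other way. Prdx6 stood at 94.98 and 89.3 CPM against 301 and 287 (-1.67 ± 0.16 (SE; adjusted p = 0.000565)), Prdx1 at 17.7 and 22.9 against 52.8 and 54.4 (-1.38 ± 0.21) and Glrx at 241 and 239 against 555 and 561 (-1.22 ± 0.18). Lysosomal and autophagy genes had 23 higher in blood and 8 higher in bone marrow of 68 tested (median 0.40). Ctss, which encodes cathepsin S, stood at 66.5 and 86.6 CPM against 10.8 and 15.4 (2.54 ± 0.20), the protective protein gene Ctsa at 97.5 and 113 against 10.5 and 19.9 (2.79 ± 0.23) and the palmitoyl thioesterase gene Ppt1 at 272 and 251 against 46.2 and 68.2 (2.20 ± 0.21).

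The lists of nuclear-encoded mitochondrial genes had more calls toward bone marrow than toward blood. As sums, however, they took a larger share of all UMIs in blood in both runs. The respiratory chain took 1.49% and 1.57% in blood against 1.40% and 1.38% in bone marrow. Mitochondrial ribosomal proteins took 0.320% and 0.391% against 0.280% and 0.274%, and citrate cycle and import genes 0.201% and 0.194% against 0.192% and 0.171%. Nuclear-encoded subunits of the respiratory chain had 3 higher in blood and 33 higher in bone marrow of 78 tested (median -0.49). Ndufa11 of complex I stood at 24.1 and 12.7 CPM in blood and 94.7 and 80.8 CPM in bone marrow (-2.34 ± 0.24 (SE; adjusted p = 0.00068)), and Uqcrb of complex III at 101 and 59.5 CPM against 235 and 228 (-1.59 ± 0.21). These 2 differences were larger than the median of the list. The list had 0 and 1 calls toward blood and bone marrow without the blood library of run 1, 0 and 0 without that of run 2, and 0 and 3 with no run block. With library totals the list had 9 and 13 calls toward blood and bone marrow, and the mitochondrial ribosomal proteins, with 3 higher in blood and 21 higher in bone marrow of 65 tested (median -0.66), had 8 and 14. With cells thinned to 500 UMIs the latter had 5 and 6 calls of 47 tested and a median of -0.22, and with DESeq2 2 and 5 calls. It had 0 and 0 calls without the blood library of run 1 and 0 and 0 without that of run 2. The citrate cycle and mitochondrial import list had 2 higher in blood and 8 higher in bone marrow of 38 tested (median -0.56), with the malate dehydrogenase gene Mdh1 at 10.1 and 10.2 CPM against 48.6 and 49.7 (-2.27 ± 0.23) and the outer membrane channel gene Vdac1 at 25.3 and 18.5 against 57.7 and 46.2 (-1.26 ± 0.20). Its calls were 0 and 0 without the blood library of run 1, 0 and 1 without that of run 2 and 0 and 4 with DESeq2.

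Glycolysis, from which neutrophils draw most of their energy, had 6 higher in blood and 9 higher in bone marrow of 32 tested (median -0.23), with a median that changed sign under library totals. Ldha, the lactate dehydrogenase, stood at 215 and 304 CPM in blood and 504 and 526 CPM in bone marrow (-1.01 ± 0.19), and Gbe1, which branches glycogen, at 32.9 and 22.1 against 63.2 and 64.9 (-1.27 ± 0.23). The glucose transporter gene Slc2a1 stood at 26.6 and 49.6 CPM against 7.87 and 13.6 (1.83 ± 0.21 (SE; adjusted p = 0.00101)), and Pfkfb4, which regulates the pathway, at 125 and 126 against 53.5 and 60.8 (1.13 ± 0.17). The lactate exporter gene Slc16a3 overlapped between the tissues, at 201 and 392 CPM against 133 and 265 (0.58 ± 0.16), and its difference was -0.00352 (adjusted p = 0.992) with cells thinned to 500 UMIs. The pentose phosphate list, which supplies NADPH, had 1 higher in blood and 7 higher in bone marrow of 12 tested (median -0.92). Pgls stood at 66.5 and 35.3 CPM against 151 and 106 (-1.39 ± 0.19) and Tkt, the transketolase, at 308 and 167 against 648 and 612 (-1.47 ± 0.24), whereas Taldo1, the transaldolase and most abundant of the 3, stood at 2435 and 2888 against 1629 and 1757 (0.65 ± 0.17). Cholesterol and fatty acid synthesis had 1 higher in blood and 10 higher in bone marrow of 25 tested (median -1.06), among them Msmo1 at 17.1 and 20.7 CPM against 54.1 and 77.1 (-1.80 ± 0.21) and Hmgcs1, which starts the mevalonate pathway, at 2.53 and 5.51 against 13.9 and 24.2 (-2.21 ± 0.30). Sc5d, which acts late in the same pathway, stood at 43.7 and 51.8 CPM against 10.5 and 17.1 (1.78 ± 0.22 (SE; adjusted p = 0.00122)).

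Cytosolic ribosomal proteins had 13 higher in blood and 12 higher in bone marrow of 83 tested (median 0.17), which is near the share of all genes, and the list had 34 and 6 calls when library totals were used. Several of those called toward blood differed between runs more than between tissues, and their levels overlapped. Rps27 stood at 42.4 and 4195 CPM in blood and 7.61 and 1748 CPM in bone marrow (1.76 ± 0.30), and Fau at 273 and 4063 CPM against 87.7 and 1923 (1.35 ± 0.21). Rps27 also has a close copy, Rps27rt. Runs had been counted with different versions of the software, and 76 genes tested had no UMI in either library of run 1, of which 11 were called, so that the part of processing in such run differences was not tested. Among members called toward bone marrow, Rpl4 stood at 120.3 and 116 CPM against 276 and 208 (-1.02 ± 0.17), with no overlap. Ribosome biogenesis had 0 higher in blood and 4 higher in bone marrow of 26 tested (median 0.02), a median that turned negative under DESeq2 size factors, and translation factors had 4 higher in blood and 6 higher in bone marrow of 45 tested (median -0.17), a median that turned positive under library totals, with 12 and 2 calls.

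The secretory pathway had 10 higher in blood and 8 higher in bone marrow of 69 tested (median -0.05), shares below those of all genes tested and a median that changed sign under library totals, with Erp29 at 146 and 132 CPM in blood against 58.8 and 50.3 in bone marrow (1.35 ± 0.17) and Manf at 7.60 and 9.92 against 28.3 and 23.8 (-1.49 ± 0.26). Ddit3, the stress factor CHOP, stood at 94.3 and 114 CPM against 24.7 and 32.1 (1.88 ± 0.18 (SE; adjusted p = 0.000565)). The proteasome had 2 higher in blood and 17 higher in bone marrow of 42 tested (median -0.60). Those called toward bone marrow included Psmb6, a catalytic subunit of the constitutive proteasome, at 53.8 and 51.8 CPM against 128 and 112 (-1.17 ± 0.17), and Psmd14, a subunit of its lid, at 10.1 and 10.2 against 42.5 and 50.01 (-2.20 ± 0.23). Both members called toward blood are catalytic subunits of the immunoproteasome, Psmb8 at 225 and 265 CPM against 157 and 139 (0.73 ± 0.17) and Psmb9 at 163 and 165 against 113 and 108 (0.57 ± 0.16). With library totals the list had 5 and 7 calls toward blood and bone marrow. Heat shock proteins had 2 higher in blood and 6 higher in bone marrow of 24 tested (median -0.40). Hspa8, the constitutive chaperone, overlapped between the tissues at 146 and 477 CPM against 82.4 and 360.1 (0.60 ± 0.18).

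Genes of RNA processing, RNA decay and noncoding RNA gave different counts. Splicing factors had 6 higher in blood and 19 higher in bone marrow of 62 tested (median -0.32), and 15 and 11 with library totals. Srsf3 stood at 29.1 and 23.2 CPM in blood and 117 and 97.5 CPM in bone marrow (-2.04 ± 0.19 (SE; adjusted p = 0.000524)), the core subunit gene Snrpd1 at 8.23 and 4.96 CPM against 39.4 and 34.5 (-2.56 ± 0.26), and Clk1, a kinase of splicing factors, at 134 and 229 against 49.6 and 93.04 (1.36 ± 0.16). Decay and translation control had 11 higher in blood and 1 higher in bone marrow of 33 tested (median 0.30). Zfp36l1 and Zfp36 encode proteins that bind AU-rich elements and speed the loss of cytokine transcripts. Zfp36l1 stood at 46.2 and 66.99 CPM against 7.61 and 11.7 (2.55 ± 0.21), Zfp36 at 284 and 221 against 72.7 and 81.5 (1.69 ± 0.19), and the helicase gene Ddx6 at 132 and 265 against 48.6 and 75.3 (1.65 ± 0.17). Btg1, an antiproliferative factor, differed by 1.93 ± 0.18 but overlapped across runs (740.2 and 3325 CPM against 198 and 851). Long noncoding RNAs had 3 higher in blood and 1 higher in bone marrow of 7 tested (median 0.70). Malat1, a transcript kept in the nucleus, stood at 27104 and 32601 CPM against 6027 and 11894 (1.81 ± 0.18 (SE; adjusted p = 0.000648)), and Neat1, which builds paraspeckles, at 718 and 729.7 against 206 and 287 (1.57 ± 0.20).

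Genes of survival and apoptosis had 15 higher in blood and 0 higher in bone marrow of 48 tested (median 0.07), and those that passed included members of both functions. Mcl1, the factor on which neutrophil survival is known to depend, stood at 593 and 923 CPM in blood and 128 and 252 CPM in bone marrow (2.04 ± 0.20 (SE; adjusted p = 0.000541)). The pro-apoptotic genes Pmaip1 (NOXA) and Bcl2l11 (BIM) stood at 51.9 and 33.9 CPM against 3.41 and 3.16 (3.62 ± 0.25 (SE; adjusted p = 0.000254)) and at 18.4 and 27.02 against 3.15 and 4.47 (2.57 ± 0.27). Cdkn1b, an inhibitor of cyclin-dependent kinases, stood at 98.8 and 192 CPM against 39.1 and 63.2 (1.49 ± 0.17). In none of the 4 did the tissues overlap.

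A share of the library and an amount per cell are different quantities here, because blood cells held fewer UMIs. Of the 1246 genes called higher in blood, 434 also had more UMIs per cell in blood in both runs, whereas 549 had fewer UMIs per cell in blood in both runs. Of the 1175 genes called higher in bone marrow, 1170 had more UMIs per cell there in both runs. Il1b had 197 and 349 UMIs per 100 blood cells and 15.3 and 58.9 per 100 bone marrow cells. Csf3r had 148 and 154 against 51.1 and 57.5, and Isg15 41.8 and 38.3 against 23.9 and 18.6. These 3 genes were thus higher in blood by both measures. H2-D1 had 376 and 386 UMIs per 100 blood cells against 392 and 377, Slpi 657 and 688 against 816 and 710.3, and Fth1 601 and 776 against 735 and 630.0, where the tissues lay near each other or overlapped. By list, immediate early genes had 8.08 and 8.38 UMIs per blood cell and 6.97 and 6.94 per bone marrow cell, cytokines 9.88 and 11.6 against 8.17 and 7.18, and long noncoding RNAs 33.8 and 33.2 against 20.1 and 27.6, of which Malat1 alone held 32.8 and 32.4 in blood and 19.2 and 26.7 in bone marrow. Interferon-stimulated genes as a sum had fewer UMIs per blood cell, 18.01 and 19.4 against 33.96 and 28.2, although 31 of the 71 had more in both runs. Ifitm6 held 1.199 and 0.498 of these UMIs in blood and 13.9 and 11.2 in bone marrow, and without it the sums were 16.8 and 18.9 in blood against 20.1 and 17.1 in bone marrow, lower in blood in run 1 and higher in run 2. Differences between the tissues in how completely transcripts were captured cannot be told apart from differences in RNA per cell.

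**Figure D5:**
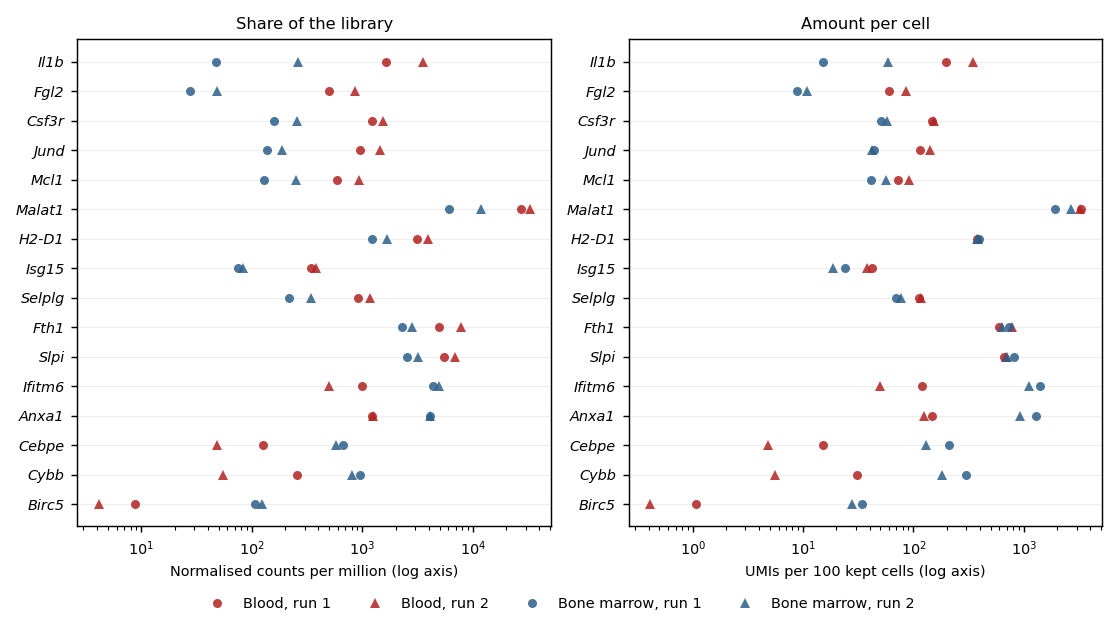
For 16 genes, the left panel gives normalised CPM and the right panel UMIs per 100 kept cells, both on log axes, with 1 point for each of the 4 libraries (red blood, blue bone marrow, circles run 1, triangles run 2). Il1b, Fgl2 and Csf3r are higher in blood in both panels, whereas the points of H2-D1, Fth1 and Slpi are separate on the left and close together or mixed on the right.

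How UMIs were spread over genes depended in part on S100a8 and S100a9, by which cells were kept. The most abundant genes that together held 50% of UMIs numbered 29 and 53 in blood and 6 and 8 in bone marrow. These 2 genes took 25.4% and 18.1% of UMIs in blood and 36.6% and 35.9% in bone marrow. With both left out, 117 and 111 genes held 50% of the remaining UMIs in blood and 56 and 78 in bone marrow. When each cell was thinned to 500 UMIs, a median of 258 and 266 genes was detected in blood cells and of 185 and 197 in bone marrow cells, a difference of 71 ± 2.83 genes (SD over 2 runs). This left out 26 blood cells of run 1 with fewer UMIs. With S100a8 and S100a9 taken out before thinning, the medians were 298 and 305 genes in blood against 269 and 282 in bone marrow, a difference of 26 ± 4.24 genes (SD over 2 runs), which left out 246 and 159 blood cells and no bone marrow cell. Unthinned, the medians were 381 and 390 genes in blood and 675 and 593 in bone marrow, the opposite order. With 2 values per tissue no exact test could reach a p of 0.05 for this value.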

How the data were processed

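The deposited values were counts of UMIs for each gene and cell, which the authors had made with Cell Ranger 1.2.0 (run 1) and 2.1.0 (run 2) on mm10 before their own cell filters. The labels name chemistry versions V1, V2 and V3 without assigning them, and the study's methods give v2 for the healthy libraries. Tables of run 1 list only genes with a UMI, 7578 in blood and 8657 in bone marrow, and a gene missing from a table was taken as 0.

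Counts of kept cells were summed per library and tested with edgeR 4.0.16 (R 4.3.3, limma 3.58.1) by glmQLFit and glmQLFTest, with TMM factors, filterByExpr and run as a block, which the shared mice of a run give. Deviations of blood and bone marrow from their tissue means had a Pearson correlation of 0.596 within runs across 7606 genes. The tests, with 1 residual degree of freedom, rest on a prior of 6.36 degrees of freedom borrowed across genes. CPM are TMM-normalised, fold changes are log2 blood minus bone marrow, and the standard error is the log2 difference divided by the square root of F. DESeq2 1.42.0 was an alternative, and tables were read with Python 3.11.15.

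No doublet caller was run and no correction for free RNA was made. The rule on Cd79a, Cd79b, Cd3e and Nkg7 may have left out some doublets, which was not tested. An alternative limited genes per cell to the 1st to 99th percentile. The named genes were the 12 with the largest difference in each direction (FDR under 0.05, same sign in both runs, mean of at least 50 CPM, outside the granule, S100, mitochondrial and marker lists) and, in each list, up to 4 called genes per direction by smallest p, of which some are left out for length or not reported here. Members, lists and this rule were chosen with earlier results of these data known. Gene positions are from GENCODE M21 and upstream sequences from RefSeq, both on GRCm38. Symbols without a single match there (Cd244, 2810417H13Rik, Ddit3 and Amica1) carry no position.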

Additional observations from a re-analysis of the deposited data

Results flagged for a closer look

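Gm10636, a predicted gene, was called higher in blood, but its difference between blood and bone marrow pointed in opposite directions in the runs, with a log2 value of 3.81 in run 1 and of -0.864 in run 2. It stood at 109.5 and 0 CPM in blood and 7.35 and 0.395 CPM in bone marrow, with no UMI in blood of run 2. No test of this disagreement was made.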

How the results depend on the processing

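No called gene reversed into a call in the other direction under any alternative. The counts of genes higher in blood and in bone marrow moved by over 1.5 times under these settings: DESeq2 gave 573 and 512, the fit with no replicate block 404 and 372, and library totals alone 2002 toward blood. Leaving out 1 library at a time, with the spread pooled over 6 healthy libraries, gave 120 to 784 genes higher in blood and 93 to 848 higher in bone marrow. When 1 is left out, the lone library of its tissue is assumed to vary like the other groups, spleen among them. The fewest calls came without the blood library of run 1 (120 and 100) or of run 2 (204 and 93), and those without the bone marrow library of run 2 were 515 and 363. The cause of these changes was not tested beyond the smaller number of libraries. Among named genes, 1 value turned, Slc16a3 at -0.00352 with cells thinned to 500 UMIs (adjusted p = 0.992), and of the 265 genes 208 no longer passed without the blood library of run 1, 186 without that of run 2, 93 without the bone marrow library of run 2, 123 with no replicate block and 50 with DESeq2. Within single runs, which allow no test, all 265 kept their direction. Their choice from calls over the same 2 runs largely fixed this. The difference in genes per cell between blood and bone marrow was 41.5 at 250 UMIs and 86.5 at 1000 UMIs, where 879 of 1305 and 2675 of 3647 blood cells were too shallow and left out but no bone marrow cell. The run block changes calls as given above, and no gene called both with and without it changed direction. In 3 alternatives chosen after seeing the data, the difference in genes per cell was 26 without S100a8 and S100a9, and counts of called genes were 1211 and 1147 without cells whose barcode occurs in another library and 1250 and 1176 without genes absent from run 1. Blood cells were shallow, so genes of low level without a call are not shown to be equal.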
